A study of Arabidopsis thaliana with 6 samples.

Results

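Chitinases are glycoside hydrolases that cut chitin, the polymer of N-acetylglucosamine in fungal cell walls. The transcripts of 10 Arabidopsis thaliana chitinase genes are described here, out of 33602 loci in the deposited tables. They are the 6 loci of a tandem run on chromosome 2, AT2G43570 to AT2G43620, and AT3G54420 (EP3), AT3G12500 (the basic chitinase PR3, named HCHIB in the annotation), AT5G24090 (CHIA) and AT1G56680. The loci were selected on the FPKM of AT2G43620, which differed strongly between the wild-type and bbx4-1 columns, so that difference is a description and not a test.

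The samples were whole seedlings of ecotype Col, either wild-type or of a line with the genotype label BBX4-1 (bbx4-1), named as a BBX4 mutant. BBX4 encodes a B-box zinc finger protein of light signalling. All grew in constant red light for 4 days at 22 °C. The 3 biological replicates of a genotype were merged by the authors into 1 FPKM value per locus (fragments scaled by transcript length and library size). No column per replicate was analysed here, so differences between the genotypes carry no replicate check, no SD and no p-value. The sources used here do not give the nature of the bbx4-1 lesion or the number of lines.

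The column labelled bbx4-1 had the higher BBX4 level, and whether that transcript is complete was not tested. BBX4 itself went from 88.97 FPKM (wild-type) to 1095.7 FPKM, so every direction below refers to the library pool labelled bbx4-1 and not to a loss of BBX4 transcript. Single fragments of short transfer RNA genes put the depth at about 48.1 M (wild-type) and 49.8 M (bbx4-1) fragments. The approximate 95% intervals below come from those depths and annotated exon lengths, and cover counting error only. Seedling identity was visible in both columns: the antenna genes LHCB1.1 and LHCB2.1 stood at 3096.5 and 1426.12 FPKM in wild-type and at 3285.29 and 1399.92 FPKM in bbx4-1, the Rubisco gene RBCS1A at 17575.1 and 17123 FPKM, and the endodermis gene CASP1 of the root at 27.95 and 30.66 FPKM. In whole seedlings, fewer cells of a type and less RNA per cell cannot be told apart.

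Plant chitinases fall into glycoside hydrolase families 18 and 19 (GH18 and GH19), which have unrelated folds. Many GH19 enzymes also carry a hevein-type chitin-binding domain. Plants release chitin fragments from invading fungi with these enzymes, and LysM receptor kinases at the cell surface sense the fragments. Some family members serve in development or in cell wall formation, and several are classed as pathogenesis-related (PR) proteins because infection, ethylene or jasmonate induces them. The reference annotation gives a GH18 or GH19 domain to 26 loci, 15 of them GH19 and 11 GH18. The 10 chitinase genes include 9 of the GH19 loci, all 9 with a chitin-binding domain, and 1 GH18 locus, CHIA.

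The run spans 18928 bp of chromosome 2 in TAIR10.1, from 18076166 to 18095093, and its 6 genes all lie on the reverse strand with 2 exons each. The gaps between neighbouring genes ranged from 726 bp (AT2G43600 to AT2G43610) to 4322 bp (AT2G43610 to AT2G43620). AT2G43620 occupies 18093694 to 18095093 and is the first gene of the run in the direction of transcription. Its coding sequence of 852 bases encodes 283 residues. The closest relative of AT2G43620 among the 10 genes was its neighbour AT2G43610, with 81.3% identical bases over 846 aligned coding bases. A second close pair was AT2G43580 and AT2G43590, with 81.9% identity. AT1G56680, on another chromosome, shared 73.1% with AT2G43600, 72.8% with AT2G43610 and 69.9% with AT2G43620. AT2G43600 shared 72.6% with AT2G43610 and 70.9% with AT2G43620. CHIA, of the other fold, gave 58.7% to 63.7% in these alignments, and most other pairs lay near that range. As the 2 folds are unrelated, values in that range do not by themselves show relatedness.

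**Figure D1:**
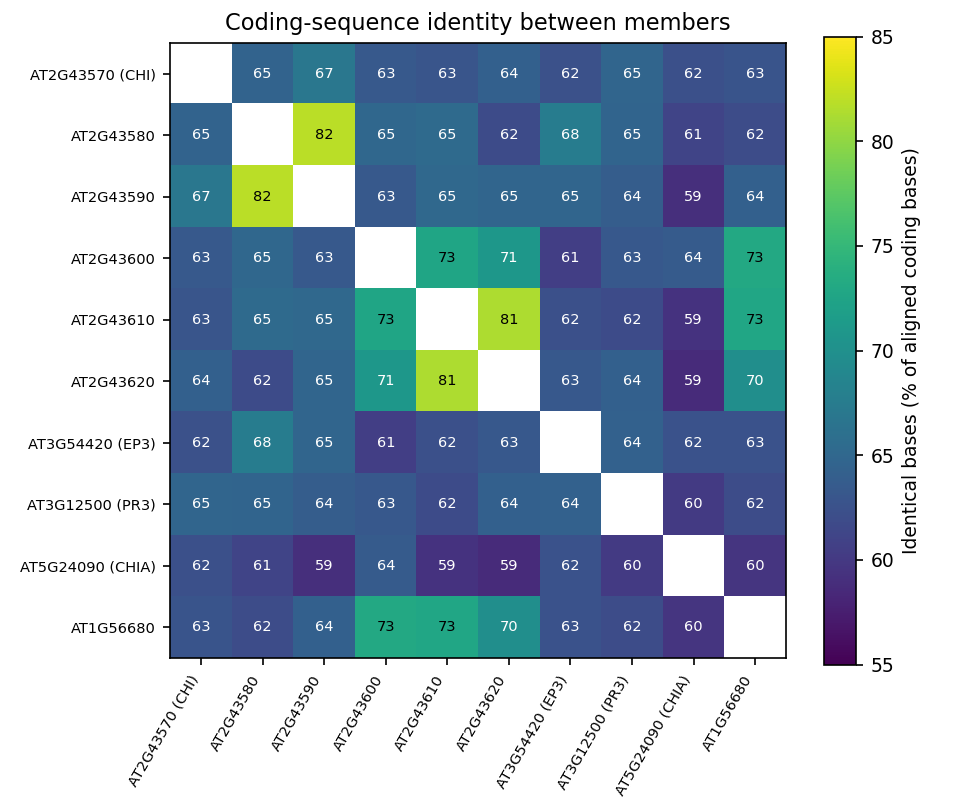
Identity of coding sequences between the 10 chitinase genes, in percent of aligned coding bases, from global pairwise alignments of the longest coding model of each locus. The pairs AT2G43610 with AT2G43620 (81.3%) and AT2G43580 with AT2G43590 (81.9%) stand out, and CHIA, the only GH18 gene, stays between 58.7% and 63.7%.

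Sequence similarity was low enough to keep the members apart at the level of 50 bases. Every exonic window of 50 bases in the 10 genes occurred at 1 place only in the TAIR10.1 genome, for example all 1082 windows of AT2G43620. The longest stretch that the transcripts of AT2G43610 and AT2G43620 share is 23 bases and is shown because it is the longest sequence that could be misassigned between them without a mismatch.

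Longest run shared by AT2G43610 and AT2G43620: atccaaatcacatggaactacaa

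The longest exact stretch shared by any pair of the 10 transcripts was 36 bases (AT2G43580 and AT2G43590). Neither the read length nor the treatment of reads with several matches is stated in the sources used here.

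The regions upstream of the close pair are shown because these 2 coding sequences are alike, while AT2G43620 differed between the columns by 2-fold and AT2G43610 did not. Each window holds the 250 bases before the annotated start, 5′ to 3′ along the gene (RefSeq, TAIR10.1, reverse strand), chr2:18095094-18095343 for AT2G43620 and chr2:18089372-18089621 for AT2G43610. Capitals mark matches, on either strand, to the W box bound by WRKY factors (TTGACC or TTGACT) and the CRT/DRE core bound by CBF factors (CCGAC). The GCC box of ethylene response factors (GCCGCC) and the G box of light-regulated promoters (CACGTG) were searched as well and are absent from these 2 windows.

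AT2G43620 upstream: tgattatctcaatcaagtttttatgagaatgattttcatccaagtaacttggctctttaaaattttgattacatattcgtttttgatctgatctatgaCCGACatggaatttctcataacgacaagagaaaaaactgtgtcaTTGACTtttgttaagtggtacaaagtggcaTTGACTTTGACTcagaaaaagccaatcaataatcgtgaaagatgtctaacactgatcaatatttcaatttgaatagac
AT2G43610 upstream: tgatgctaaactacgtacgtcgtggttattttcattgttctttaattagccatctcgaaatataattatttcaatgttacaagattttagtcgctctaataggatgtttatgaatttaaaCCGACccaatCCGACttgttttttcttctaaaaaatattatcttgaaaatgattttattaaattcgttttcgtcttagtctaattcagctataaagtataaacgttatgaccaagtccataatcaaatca

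The AT2G43620 window held 3 W boxes, beginning 108, 78 and 72 bases before the start, of which the last 2 directly adjoin each other, and 1 CRT/DRE core at 152 bases. The AT2G43610 window held no W box and 2 CRT/DRE cores, at 130 and 120 bases. Among 27443 windows of the same length before nuclear protein-coding genes, 28.4% held at least 1 W box, 1.06% held at least 3, and 12.0% held a CRT/DRE core. Of the 10 chitinase genes, 6 had a W box in the window and 3 a CRT/DRE core, while AT2G43600 alone had a G box, which 6.49% of all windows held. None had a GCC box, which 1.87% of all windows held. Apart from AT2G43620, the genes with a W box were AT2G43570, AT2G43590, AT2G43600, EP3 and AT1G56680, with 1 each. None of them differed by 2-fold between the columns, with log2 ratios from −0.10 to 0.29. The matches describe letters in the windows and do not show binding. A link between W boxes and the difference of AT2G43620 was not tested.

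AT2G43620 was the member with a large difference. This GH19 chitinase gene with a chitin-binding domain, annotated as an apoplast protein that responds to salt stress, stood at 7.59 FPKM in the wild-type pool and at 21.73 FPKM in the bbx4-1 pool. These pools of 3 replicates each are the only values per genotype, and the bbx4-1 value is the higher. The ratio was 2.86, with a counting interval of 2.56 to 3.20, and rests on about 431 and 1278 fragments. On the log2(FPKM + 1) scale the difference was 1.40, with a counting SE of 0.073. It ranked 8th of the 18931 loci whose mean FPKM reached 1, and 4th of the 13267 nuclear loci with a mean of at least 5. Among the 3929 loci with mean FPKM from 10 to 20, where AT2G43620 lies, the central 95% of log2 ratios ran from −0.27 to 0.32, and 2 loci reached its value, itself included.

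The neighbouring copy AT2G43610, its closest relative, stood at 33.21 FPKM (wild-type) and 32.05 FPKM (bbx4-1), a log2 ratio of −0.050 with a counting interval of the FPKM ratio of 0.907 to 1.03. AT2G43620 had 0.229 times the level of AT2G43610 in wild-type and 0.678 times in the other column. Of this close pair, AT2G43620 was past 2-fold and AT2G43610 was at a log2 ratio near 0.

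AT2G43590 had the highest level of the 10 genes in both columns. It stood at 54.5 FPKM (wild-type) and 50.65 FPKM (bbx4-1), a log2 ratio of −0.10 (ratio 0.929, interval 0.882 to 0.979). Its close copy AT2G43580 was almost silent, at 0.27 and 0.18 FPKM, or about 14 and 9 fragments, and its interval of 0.237 to 1.54 allows a difference in either direction. The level of AT2G43590 was 202 times that of AT2G43580 (wild-type) and 281 times (bbx4-1) on FPKM.

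The other members of the run had counting intervals that include a ratio of 1. AT2G43570, annotated as CHI and placed in the apoplast, stood at 6.14 FPKM (wild-type) and 6.77 FPKM (bbx4-1) (ratio 1.103, interval 0.950 to 1.28). AT2G43600 stood at 0.99 and 1.44 FPKM, on about 47 and 70 fragments. Its mean FPKM reached 1 only through the column labelled bbx4-1, so a filter at that mean favoured a ratio above 1. Its ratio of 1.45 is the next highest of the 10, and its interval of 0.979 to 2.13 leaves the size of the difference undetermined. On the log2(FPKM + 1) scale its difference of 0.29 had a counting interval of 0.0066 to 0.58. Whether no difference is included thus depends on the interval used.

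**Figure D2:**
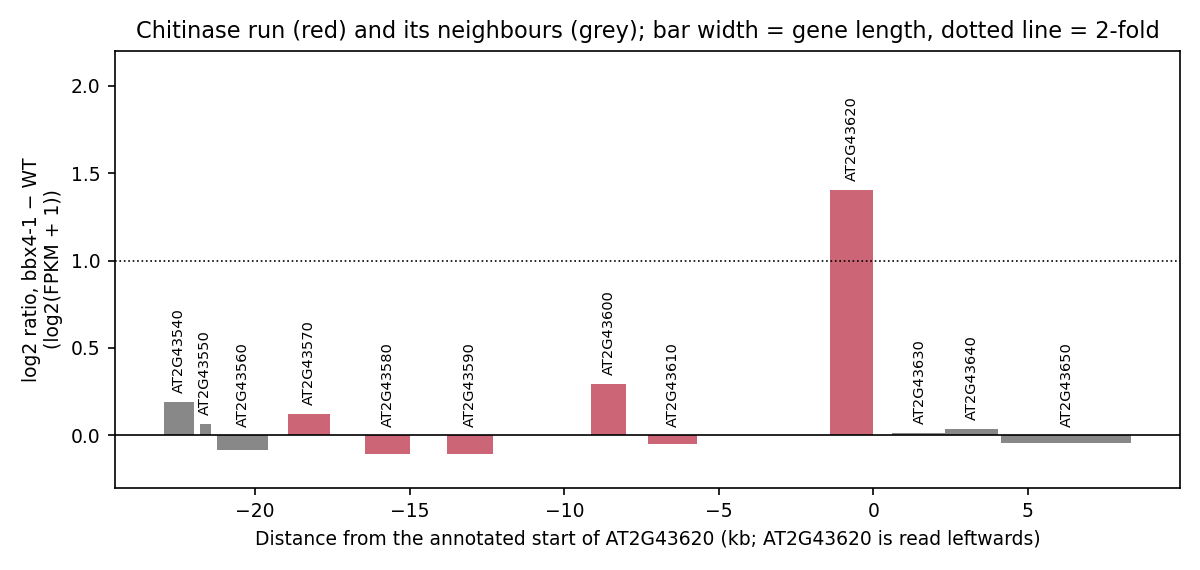
Differences along the chitinase run (red) and its neighbours (grey), as log2(FPKM + 1) in the column labelled bbx4-1 minus wild-type, against distance in kb from the annotated start of AT2G43620, with bar width equal to gene length. AT2G43620 reaches 1.40, past the dotted 2-fold line, and the other bars lie between −0.11 and 0.29.

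The 6 genes beside the run had log2 ratios between −0.085 and 0.19. AT2G43630, annotated as a nuclear envelope protein and the neighbour of AT2G43620 on its upstream side, stood at 38.51 and 38.91 FPKM (log2 ratio 0.015). AT2G43640, a signal recognition particle subunit, was at 0.037 and AT2G43650 (EMB2777) at −0.046. On the other side, AT2G43560, an FKBP-like isomerase, was at −0.085, AT2G43550, a knottin-type small protein, at 0.065 and AT2G43540 at 0.19. The counting interval of the FPKM ratio lay above 1 for AT2G43540 (1.04 to 1.27) and below 1 for AT2G43560 (0.911 to 0.974). It included 1 for the other neighbours. Of all loci with mean FPKM of at least 1 and an exon length, 23.8% were higher and 12.6% lower by this interval.

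The 4 genes outside the run had lower values in the column labelled bbx4-1, each within counting error. PR3 (AT3G12500), the vacuolar basic chitinase that is a standard marker of ethylene and jasmonate responses, stood at 13.6 FPKM (wild-type) and 13.09 FPKM (bbx4-1), nearly level (ratio 0.963, interval 0.876 to 1.06). EP3 (AT3G54420), the relative of a carrot chitinase known from somatic embryogenesis, stood at 6.44 and 6.12 FPKM (ratio 0.950, interval 0.850 to 1.06). CHIA (AT5G24090), the GH18 member, which responds to salt, cold and wounding per its annotation, stood at 7.15 and 6.37 FPKM (ratio 0.891, interval 0.775 to 1.02). AT1G56680, a GH19 gene with no role described here, stood at 3.01 and 2.86 FPKM (ratio 0.950, interval 0.759 to 1.196).

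**Figure D3:**
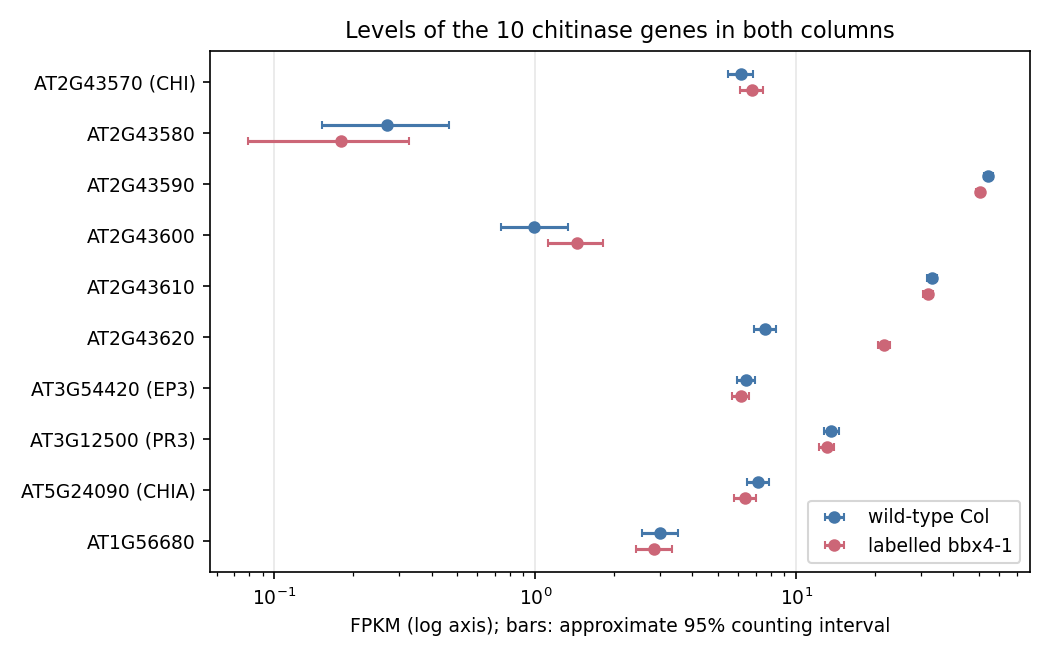
FPKM of the 10 chitinase genes on a log axis in wild-type (blue) and in the column labelled bbx4-1 (red), with approximate 95% counting intervals as bars. The intervals of AT2G43620, 7.59 against 21.73 FPKM, do not overlap, and those of the other 9 genes do, for AT2G43590 only at their edges.

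Across the 10 genes, 1 (AT2G43620) had a 2-fold or larger excess in the column labelled bbx4-1 and 0 were at least 2-fold lower, where a mean FPKM of at least 1 left 9 of the 10 and removed AT2G43580. Of all 18931 loci so filtered, 0.106% were at least 2-fold higher and 0.0423% at least 2-fold lower. Since AT2G43620 was picked for this difference, nothing is read from the comparison of those shares. By the counting interval of the FPKM ratio alone, AT2G43620 was higher and AT2G43590 lower, against 23.8% and 12.6% of loci. The small difference of AT2G43590 is thus of a kind found throughout these data. The median log2 ratio of the 9 genes was −0.051, beside 0.028 for all loci, and without AT2G43620 the 8 others ran from −0.15 to 0.29.

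**Figure D4:**
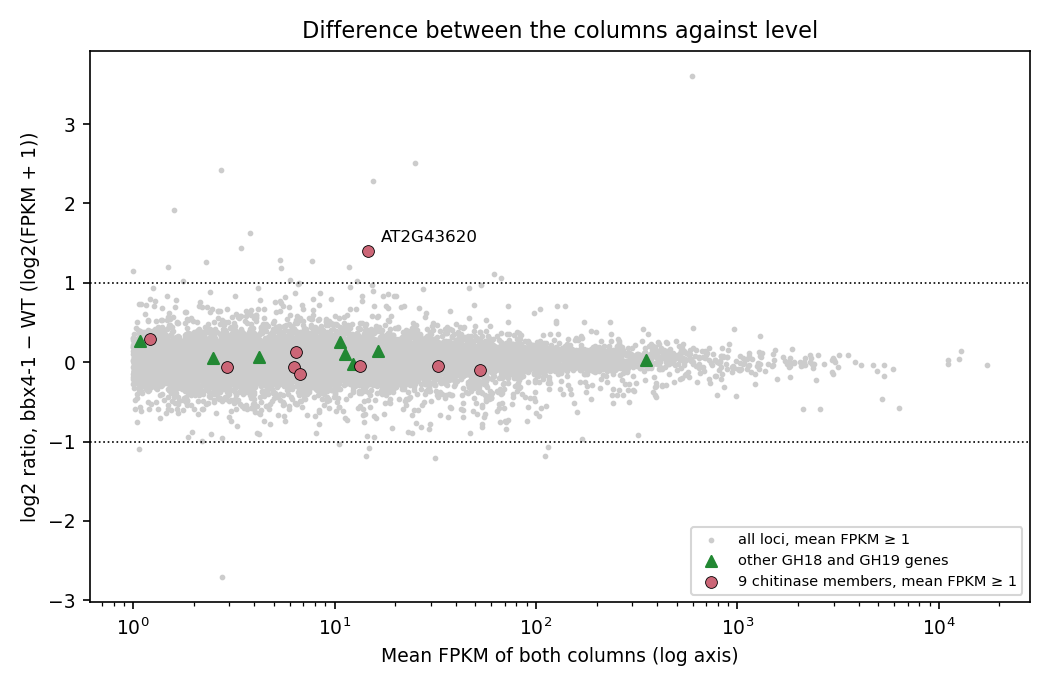
Log2 ratio of all loci with mean FPKM of at least 1 (grey) against mean FPKM on a log axis, with 9 chitinase genes (red circles) and 8 other GH18 and GH19 genes (green triangles). AT2G43620 lies at 1.40, above the dotted 2-fold line, and all other chitinase symbols lie between −0.15 and 0.29.

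The order of levels within the family differed between the columns. In wild-type it ran AT2G43590, AT2G43610, PR3, AT2G43620, CHIA, EP3, AT2G43570, AT1G56680, AT2G43600 and AT2G43580. The counting intervals of AT2G43620, CHIA, EP3 and AT2G43570 overlapped from each to the next, between 6.14 and 7.59 FPKM. In the column labelled bbx4-1, AT2G43620 stood above PR3 and outside its interval. AT2G43570 stood above CHIA and EP3 there, but the intervals of these 3 genes overlapped from each to the next in both columns. AT2G43620 supplied 7.39% of the run's summed FPKM in the wild-type pool and 19.3% of it in the bbx4-1 pool. The run summed to 102.7 and 112.82 FPKM, and without AT2G43620 to 95.11 and 91.09 FPKM. AT2G43590 and AT2G43610 together held 85.4% and 73.3% of the run.

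The remaining annotated GH18 and GH19 genes showed no 2-fold difference. A list of 14 of these 16 genes left 8 after the filter, of which 7 had log2 ratios above 0. So did 59.1% of all loci that passed the filter, which is the share to set beside such counts here and below. The list had a median of 0.085 and a range from −0.026 to 0.27. CTL1 (AT1G05850), a chitinase-like protein that works in cellulose assembly, had by far the highest FPKM, at 347.19 and 353.66 (log2 ratio 0.027). Its relative CTL2 (AT3G16920) had the lowest log2 ratio, −0.026. The 2 highest were the GH18 gene AT4G19720, from 0.89 to 1.28 FPKM (0.27), and the GH19 gene AT4G01700, from 9.63 to 11.64 FPKM (0.25). AT4G19720 passed the filter only through its level in the column labelled bbx4-1, so the filter favoured its ratio above 0. Of the 14 genes, 6 failed the filter with at most 0.11 FPKM, and all are GH18 loci between AT4G19730 and AT4G19800. Near them, ChiC (AT4G19810) stood at 10.85 and 11.75 FPKM and AT4G19820 at 2.43 and 2.56 FPKM. The list leaves out AT4G01040, at 14.78 and 14.87 FPKM, and PR4, which the next list holds.

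A list drawn up for chitin perception and its downstream signalling, from LysM proteins to kinases and WRKY33, held genes on both sides of 0. Being listed does not show that each LysM protein senses chitin. All 12 passed the filter, with 5 above 0, 7 below and none past 2-fold, and a median log2 ratio of −0.057. By the counting interval of the FPKM ratio, 2 were higher (CERK1 and LYM2) and 5 lower, beside 23.8% and 12.6% of loci. The 5 lower were WRKY33, LYK5, LYK3, LYM3 and MPK3. The receptor kinase CERK1 (AT3G21630), which chitin signalling in Arabidopsis requires, was at 9.79 and 10.76 FPKM (0.12), and LYM2, a membrane-anchored chitin-binding LysM protein, was highest at 0.18. LYK5, the chitin-binding partner of CERK1, stood at 3.1 FPKM (wild-type) and 1.95 FPKM (bbx4-1), a log2 ratio of −0.47, and the transcription factor gene WRKY33 at 27.13 and 18.27 FPKM (−0.55).

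Among other defence outputs, PDF1.2 and PDF1.2c had higher log2 ratios than AT2G43620, at 2.42 and 1.91. The list of PR proteins, glucanases, defensins, thionins and AZI1 was assembled with the values of several of its members known, so its direction is not independent. Of 12 genes 6 passed the filter, and 5 of these were past 2-fold upwards. PDF1.2, PDF1.2c and PR5 passed it only through their level in the column labelled bbx4-1, so neither that count nor the median log2 ratio of 1.08 (0.65 with no filter) supports a direction of the list. THI2.2, a thionin (38.88 and 85.14 FPKM), and AZI1, a lipid-transfer protein (43.12 and 90.78 FPKM), had levels far above the filter in both columns. The defensin genes PDF1.2 and PDF1.2c were highest (0.18 to 5.3 and 0.09 to 3.1 FPKM) and are near copies of each other. PR4, a chitin-binding protein that shares a domain annotation with PR3, was lowest at 0.23 (54.22 to 63.72 FPKM), and PR5, a thaumatin-like protein, was next at 1.02. The glucanase BGL2 (PR2), which acts with chitinases on fungal walls, did not pass the filter, at 0.25 and 0.79 FPKM, and PR1 stood at 0.08 and 0.19 FPKM.

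Regulators of ethylene and jasmonate responses, which act upstream of PR3, did not share one direction. Of 11 genes 10 passed the filter, 4 of them above 0 and 6 below, none past 2-fold, with a median of −0.038. EIN3, the central ethylene transcription factor, and MYC2, the jasmonate factor, were highest, both at 0.076. ERF104 was lowest at −0.59 (26.52 to 17.33 FPKM), followed by ERF6 at −0.46, ERF5 at −0.34 and ERF2 at −0.30. By the counting interval of the FPKM ratio, these 4 ERF genes were lower, at ratios from 0.653 to 0.774. The 3 genes higher by that interval, EIN2, EIN3 and MYC2, had ratios of only 1.05 to 1.06. Of all loci, 23.8% were higher and 12.6% lower by the same interval. ORA59, which activates PDF1.2, was at 1.72 and 1.85 FPKM, and ERF1 at 0.29 and 0.18 FPKM.

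**Figure D5:**
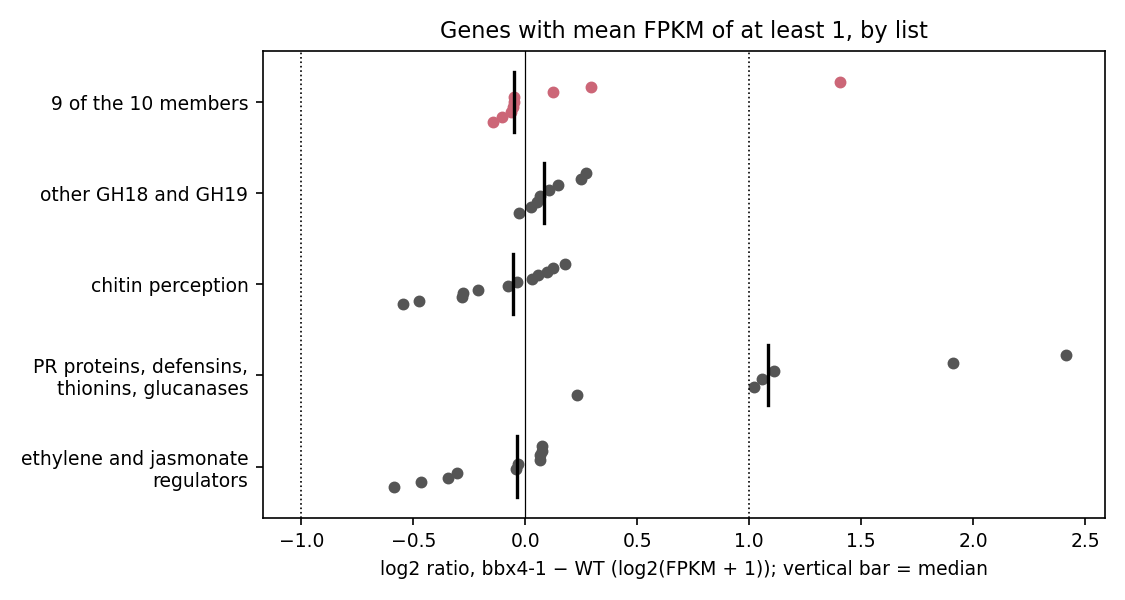
Log2 ratios of single genes with mean FPKM of at least 1, by list, with the list's median as a vertical bar and dotted lines at 2-fold. The 9 chitinase genes cluster near their median of −0.051 apart from AT2G43620, and the PR and defensin list has 5 genes past 2-fold, 3 of which passed the filter only through the bbx4-1 column.

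The nuclear genes whose pair of levels lay nearest to AT2G43620, by Euclidean distance on log2(FPKM + 1) over the 2 columns, were AT1G24580, AT2G36630, AT3G44450, MIPS2 and BBX31. AT1G24580, a RING/U-box gene, was nearest with 8.18 and 17.69 FPKM at a distance of 0.298. BBX31, a single B-box gene of the family that holds BBX4, had 7.89 and 16.11 FPKM at a distance of 0.413. With 2 columns, such nearness states only that the levels were similar in both.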

How the data were processed

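Transcript levels were read from 2 deposited tables, 1 per genotype, each with 1 column of FPKM values that the authors made by combining 3 replicates, per the labels' design text. The submitters' processing notes name TAIR10, HISAT2 2.1.0 and edgeR 3.0.8 with no role; the counting tool, strand use and filters: not given in the sources used here.

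Differences are log2(FPKM + 1) in the bbx4-1 column minus wild-type, as deposited; the pseudocount of 1 understates changes of low genes. Counts cover loci whose mean FPKM reached 1, with a 2-fold threshold. With 1 column per genotype no test was run. Of 33602 loci, 32835 matched the TAIR10.1 RefSeq annotation. Approximate fragments are FPKM times exon length divided by the median product of FPKM and length of transfer RNA genes of at most 75 bp with a product under 30 (20 and 18 loci), which takes each deposited FPKM as a mean over 3 libraries. Exact (Clopper-Pearson) 95% intervals of the ratio and exact Poisson intervals of a level follow from them and cover counting error only, as PCR copies could not be told apart. This step was tested on simulated Poisson fragments with the same depths and exon lengths. That checks the computation only, as the simulation holds no replicate variation, PCR copies or length error. Coding identity came from global alignments (Biopython 1.88; match 2, mismatch −1, gap opening −5, gap extension −0.5). Statistics used Python 3.11.15 and SciPy 1.17.1.

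The members and gene lists were chosen with earlier results of these data known. Named genes are the 10 chitinase genes, BBX4, neighbours from AT2G43540 to AT2G43650, the 5 loci nearest to AT2G43620 in level, and the 2 highest and 2 lowest of each list; other genes named were chosen after their values were seen. Lists of green tissue, root and seed markers had median log2 ratios of −0.027, 0.14 and 0.000321. Alternatives were pseudocounts of 0.1 and 5, no filter, a filter at mean FPKM 5, and centring on the median of nuclear loci.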

Additional observations from a re-analysis of the deposited data

How the results depend on the processing

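AT2G43620 was past 2-fold, and the only chitinase gene so, under every alternative run. The gene was selected on these same values, and a filter cannot change its own ratio, so this is not independent support. The log2 ratio of AT2G43620 fell to 1.09 at a pseudocount of 5. At a pseudocount of 0.1, AT2G43580 moved to −0.40, on about 14 and 9 fragments. Over all loci, a pseudocount of 0.1 gave 42 loci 2-fold higher and 24 lower. A pseudocount of 5 gave 5 and 4, and a filter at mean FPKM 5 left 12 higher. The median of the list of PR proteins and defensins was 1.36 at a pseudocount of 0.1, 0.83 at 5 and 0.65 with no filter, where its nearly silent members enter. Centring moved the green tissue median to −0.056. The seed marker median, on 2 genes, changed sign at a pseudocount of 0.1 (−0.031), with no filter (−0.19) and with centring (−0.028). No paired analysis was possible because each genotype has 1 combined column, and for the same reason no replicate could be left out. Depth limits AT2G43580 and AT2G43600, whose counting intervals of the FPKM ratio span 1.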
